A study of Homo sapiens with 6 samples.

Results

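Receptor tyrosine kinases are cell surface proteins that bind a growth factor, matrix protein or membrane ligand outside the cell and phosphorylate tyrosines inside it. Here 51 of them, chosen by gene symbol from the families of this class, were followed in cells labelled as the ovarian cancer line SKOV3. Of these, 50 had at least 1 probe with their symbol on the array and EPHB2 had none. In all, 88 probes carried a member's symbol and 40 of them passed the filter on dim probes, so that 29 members could be tested, among 11729 genes. The other 21 with a probe were too dim on these arrays to be tested.

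SKOV3 is an established line from a human ovarian carcinoma, known for a high level of the receptor ERBB2. Of its sublines, ip1 is labelled as parental and OM3 as metastatic, with 3 single-colour Illumina bead arrays of total RNA each. No treatment, transgene or time point is given for either, and the labels name cells as the source while the extraction protocol speaks of tissues. Nothing in the labels says that the 3 arrays of a subline came from separate cultures. The p-values then reflect the spread among these arrays alone, which may be technical.

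When a ligand joins receptor chains, the kinases phosphorylate each other, and adaptor proteins that dock on the phosphotyrosines pass the signal to the RAS, PI3K and PLC-gamma pathways. Ubiquitin ligases and phosphatases end it. In ovarian cancer cells the ERBB, MET and AXL receptors are known for their part in growth, survival and invasion. ERBB3 has a weak kinase of its own and signals mainly in pairs with another member of its family, and ERBB2 has no known ligand of its own.

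The labels were checked against marker genes before the receptors were compared. Of 12 epithelial markers, 10 were tested, of which 7 were lower and 1 (EPCAM) higher in OM3, and their summed signal ranged from 33470 to 36776 on the ip1 arrays and from 8932 to 10545 on the OM3 arrays. Of 6 markers of Mullerian epithelium, to which ovarian carcinomas are related, 5 were lower (summed signal 7339 to 7927 in ip1 and 278 to 404 in OM3), and the probes that represent PAX8, SOX17 and MSLN were below background on every OM3 array, with another PAX8 probe above it on 1. Of 8 fibroblast markers, 6 were tested and all 6 were higher in OM3, while COL1A1 and FAP did not pass the filter. The summed signal of the 6 was 216 to 240 in ip1 and 7643 to 8694 in OM3. The probes that represent 5 of them were below background on every ip1 array, so the ip1 sum is mostly background signal. A marker that passed the filter only through the arrays of 1 subline had to be brighter there. CDKN2A, a cell cycle inhibitor reported as deleted in SKOV3, was below background on all 3 ip1 arrays. In OM3 it was higher by at least 11.2-fold, and by at least 6.78-fold on its second probe. A difference between the sublines of one line therefore cannot be told apart here from a difference between unlike cells, and every value below compares the arrays labelled OM3 with those labelled ip1. Endothelial markers (3 of 8 tested, summed signal 308 to 434 in ip1 and 239 to 308 in OM3) and leukocyte markers (3 of 8 tested, 1937 to 2526 in ip1 and 594 to 747 in OM3) showed 0 genes higher and 1 gene lower each. Of 6 adipocyte markers, 2 were tested and 1 was lower (300 to 599 in ip1 and 320.0 to 418 in OM3). Of 5 mesothelial markers, 4 were tested and 2 were lower (1199 to 1370 in ip1 and 258 to 419 in OM3). Beside these marker counts, 31.2% of all genes tested were higher in OM3 and 25.9% lower.

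Most receptors that could be tested differed between the sublines, and more were lower than higher in OM3. At an adjusted p under 0.05, 8 receptors were higher, 16 were lower and 5 did not pass, so that 82.8% were called, beside 57.1% of all genes tested. The higher receptors were 8 of 29, where 31.2% of all genes were higher, and the lower ones 16 of 29, where 25.9% of all genes were lower. Their median log2 fold change was -0.817, beside 0.086 over all genes. At a change or bound of at least 2-fold, 5 receptors were higher (ERBB3, PDGFRA, MERTK, EPHA5 and DDR2, beside 12.3% of all genes) and 11 were lower (EGFR, ERBB2, FGFR3, FGFR4, PTK7, MET, MST1R, AXL, TYRO3, EPHA2 and DDR1, beside 12.7%). The 3 values of ip1 and the 3 of OM3 did not overlap for 25 of the 29, beside 64.2% of all genes. A gene that passed the filter only through the arrays of 1 subline had to be brighter there, so these counts describe the tested receptors and not all 51.

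The set of receptors above background was as long in one subline as in the other but not made of the same genes. In each subline 20 members had a probe above background on all 3 arrays, and 14 of these were shared. By the probe that represents the gene, 6 members were above background on every ip1 array and on no OM3 array (MET, MST1R, AXL, RET, ROR1 and FGFR1). In the other direction, 4 were above background on every OM3 array and on no ip1 array (ERBB3, EPHA5, DDR2 and STYK1). Among all genes tested, 5.31% showed the first pattern and 2.14% the second. Over all probes of a gene the counts were 5 and 3, since another AXL probe was above background on 1 OM3 array and another ERBB3 probe on 2 ip1 arrays. Between 23 and 30 members had a probe above background on an ip1 array and between 23 and 25 on an OM3 array.

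**Figure D1:**
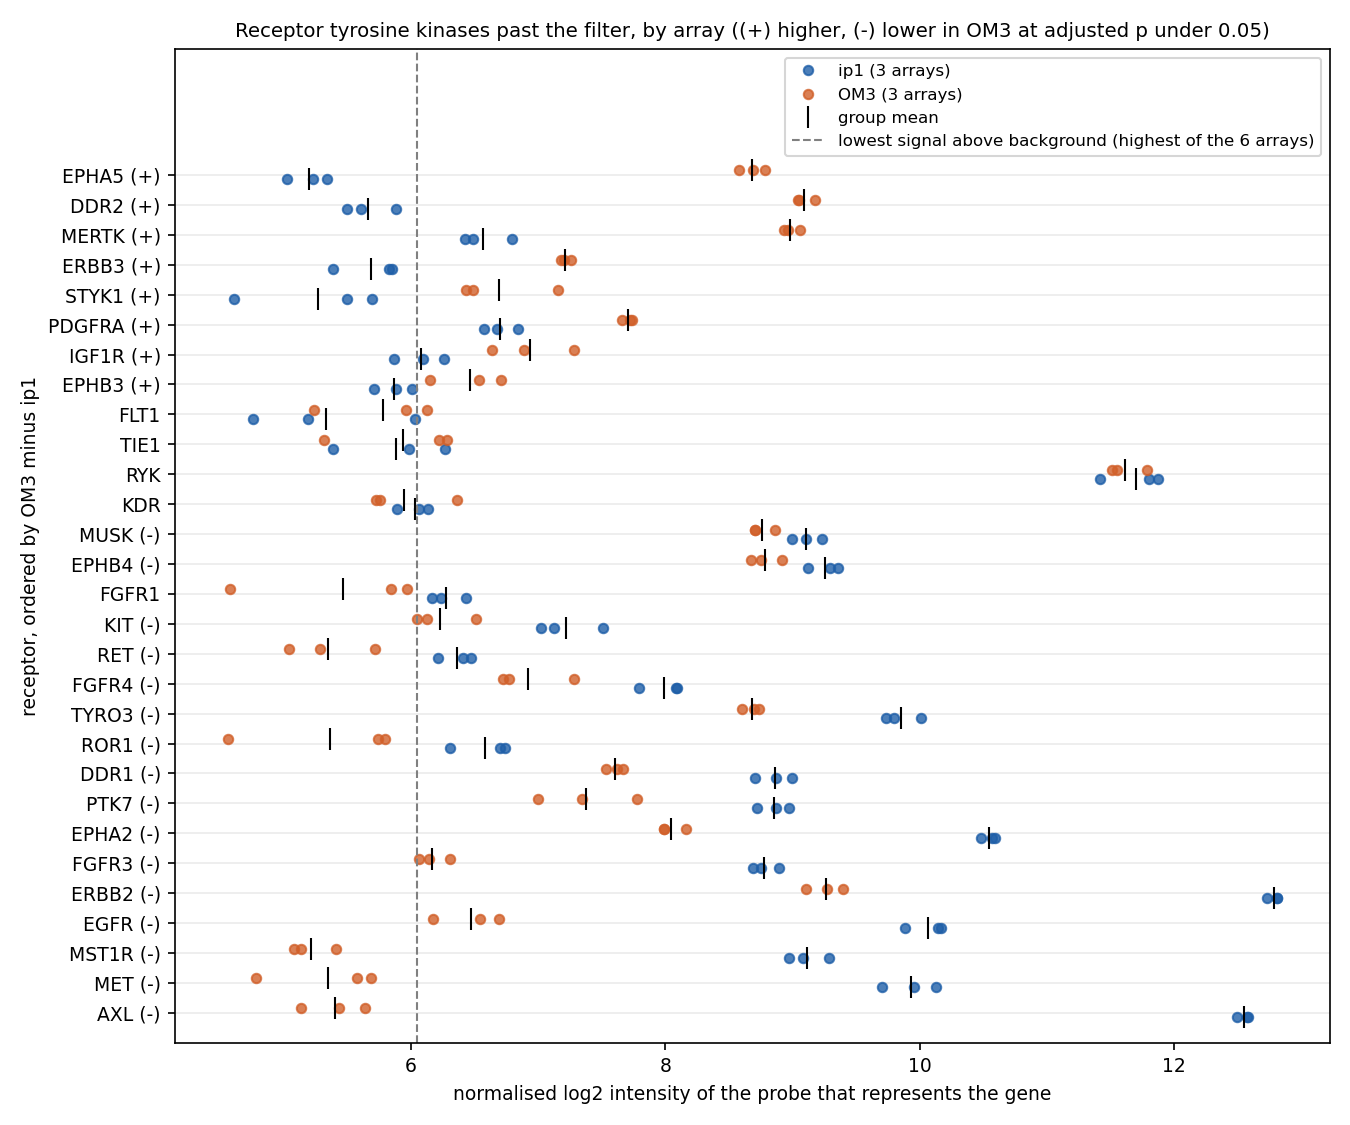
Normalised log2 intensity of the 29 receptors past the filter, 1 row per receptor and 1 point per array (3 ip1, 3 OM3), with a short line at each group mean. Each array has its own lowest signal that counted as above background, and the dashed line is at the highest of these. Points below 5.93 are background, and points just left of the line can count as above it on their array. Levels of different receptors cannot be set against each other because they come from different probes. The ip1 points of AXL, MET and MST1R lie far to the right of their OM3 points, and the OM3 points of EPHA5, DDR2 and MERTK lie to the right of their ip1 points.

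Promoter sequences are shown for MET, AXL, MST1R and DDR2, which were below background on every array of 1 subline and at least 8-fold brighter in the other, since their start regions can be set beside this difference. Windows run from 250 bases before to 50 bases after an annotated start in RefSeq (GRCh38.p14), and 15 of the 16 receptors changed by at least 2-fold had a window. MET lies on the plus strand (chr7:116671946-116672245), AXL on the plus strand (chr19:41218973-41219272, 1 of 2 windows), MST1R on the minus strand (chr3:49903824-49904123) and DDR2 on the plus strand (chr1:162630613-162630912, 1 of 3 windows). Each is written 5′ to 3′ along the strand of its gene. Capitals mark matches to AP-1 (TGANTCA), TEAD (GGAATG) or SP1 (GGGCGG) on either strand, and overlapping matches run together.
MET: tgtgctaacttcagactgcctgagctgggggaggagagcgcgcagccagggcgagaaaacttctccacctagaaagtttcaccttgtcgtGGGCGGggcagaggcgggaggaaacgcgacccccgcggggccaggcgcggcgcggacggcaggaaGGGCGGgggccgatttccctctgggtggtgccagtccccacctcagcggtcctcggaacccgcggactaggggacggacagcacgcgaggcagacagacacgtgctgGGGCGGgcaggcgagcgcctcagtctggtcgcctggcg
AXL: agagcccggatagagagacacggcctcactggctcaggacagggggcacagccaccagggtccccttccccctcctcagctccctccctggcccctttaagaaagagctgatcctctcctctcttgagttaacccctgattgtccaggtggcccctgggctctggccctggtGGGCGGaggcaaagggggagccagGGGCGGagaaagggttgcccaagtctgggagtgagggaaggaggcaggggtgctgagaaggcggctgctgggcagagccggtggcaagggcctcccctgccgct
MST1R: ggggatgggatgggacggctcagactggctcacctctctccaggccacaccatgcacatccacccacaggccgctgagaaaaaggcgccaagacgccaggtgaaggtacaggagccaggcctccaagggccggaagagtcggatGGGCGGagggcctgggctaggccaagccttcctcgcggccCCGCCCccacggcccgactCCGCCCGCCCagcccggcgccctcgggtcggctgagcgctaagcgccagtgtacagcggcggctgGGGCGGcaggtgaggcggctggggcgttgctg
DDR2: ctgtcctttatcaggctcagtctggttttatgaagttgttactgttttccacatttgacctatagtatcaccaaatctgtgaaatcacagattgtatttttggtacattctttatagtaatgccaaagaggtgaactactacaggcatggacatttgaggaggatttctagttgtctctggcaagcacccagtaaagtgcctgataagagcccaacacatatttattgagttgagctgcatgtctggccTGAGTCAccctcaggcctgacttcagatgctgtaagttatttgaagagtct

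The printed windows of MET, AXL and MST1R held SP1 letters and neither AP-1 nor TEAD letters, and the printed DDR2 window held an AP-1 match and no SP1 match. Other starts of these genes differed, as the second AXL window held TEAD and no SP1 letters and the other 2 DDR2 windows held none of the 3 motifs. The printed windows had a GC content of 69.3% for MET, 66.0% for AXL, 71.3% for MST1R and 41.0% for DDR2, beside a median of 58.7% over 35116 promoter windows. They held 30 CpG dinucleotides for MET, 25 for MST1R, 7 for AXL and 0 for DDR2, beside a median of 14. The second AXL window had a GC content of 53.7% and 17 CpG dinucleotides. Over the 11 lower receptors (23 windows), AP-1 letters occurred in a window of 4, TEAD letters in 5 and SP1 letters in 10. Over the 4 higher receptors with a window (8 windows), these counts were 2, 0 and 3. Of all windows, 7.71% held AP-1, 14.0% TEAD and 45% SP1 letters. A receptor with several windows has more chances to hold a match, and a match describes letters, not binding.

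In the EGF receptor family EGFR and ERBB2 fell, and ERBB3 rose by the probe that represents it. EGFR, the receptor of EGF and TGF-alpha, read 10.17, 9.88 and 10.15 (normalised log2 intensity) on the ip1 arrays and 6.17, 6.69 and 6.55 on the OM3 arrays. All OM3 arrays were low, the groups did not overlap, and EGFR fell by 3.60 ± 0.17 (log2, SE, n = 3 + 3, adjusted p = 4.37e-07). Its second probe, above background on 2 OM3 arrays, fell by 1.15 ± 0.17. In bulk RNA, fewer cells that carry a receptor and less of its RNA per cell cannot be told apart, here or below.

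ERBB2 read 12.73, 12.81 and 12.81 in ip1 and 9.27, 9.11 and 9.40 in OM3. It fell by 3.53 ± 0.13 (adjusted p = 1.11e-07), a ratio of 11.5, yet stayed above background on all 3 OM3 arrays. ERBB3 read 5.38, 5.85 and 5.83 in ip1, all below background, and 7.26, 7.18 and 7.20 in OM3. By that probe the OM3 level was at least 2.39 times the ip1 level (adjusted p = 5.41e-05), and the groups did not overlap. This probe passed the filter only through the OM3 arrays, so it had to be brighter there. The other ERBB3 probe past the filter, above background on 2 ip1 and 3 OM3 arrays, differed by 0.51 ± 0.27 (adjusted p over probes = 0.152). Where any OM3 array was left out, that other probe stood for ERBB3, because the first no longer passed the filter. It differed by 0.25 (adjusted p = 0.403) without array 1 and by 0.47 (adjusted p = 0.241) without array 2. Without array 3 ERBB3 kept its call. A last ERBB3 probe was below background on every array. ERBB4, which like ERBB3 binds neuregulins, had 1 probe, above background on 0 ip1 arrays and 1 OM3 array, and was not tested.

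Of the family's 11 listed ligands, 6 were tested, 3 of them lower and 1 higher, beside 25.9% lower and 31.2% higher over all genes. TGFA, a ligand of EGFR, was lower in OM3 by at least 38.9-fold, and HBEGF, which binds EGFR and ERBB4, fell by 2.96 ± 0.13. BTC, which binds the same receptors, was at least 1.36-fold lower. NRG1, the ligand of ERBB3 and ERBB4, rose by 2.37 ± 0.14, while EGF and NRG2 did not pass the test (adjusted p = 0.0925 and 0.0575).

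The MET family showed receptors lower in OM3 and one of the ligands higher. MET, the receptor of hepatocyte growth factor, read 9.96, 9.70 and 10.13 in ip1 and 5.69, 5.58 and 4.78 in OM3. Every OM3 array lay below background, so MET was at least 15.3-fold lower in OM3 (adjusted p = 8.78e-07). MST1R, the receptor of macrophage stimulating protein, read 8.97, 9.29 and 9.08 in ip1 and 5.08, 5.41 and 5.14 in OM3, again with all OM3 arrays below background and at least 8.68-fold lower (adjusted p = 1.31e-07). HGF, the ligand of MET, went the other way, with 5.28, 5.71 and 4.87 in ip1 (all below background) and 8.67, 8.86 and 8.57 in OM3. It was at least 6.71-fold higher in OM3 by this probe and at least 2.69-fold higher by its second. MST1, the ligand of MST1R, differed by 0.32 ± 0.38 (adjusted p = 0.495). HGF is known as a product of mesenchymal cells, and the 6 tested fibroblast markers were also higher in OM3. Their part in the HGF result was not tested.

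In the TAM family, whose members bind GAS6 and protein S, AXL and TYRO3 fell while MERTK rose. AXL read 12.50, 12.58 and 12.58 in ip1 and 5.44, 5.13 and 5.64 in OM3. With every OM3 array below background it was at least 94.1-fold lower (adjusted p = 1e-08), and its other probe, above background on 1 OM3 array, fell by 6.82 ± 0.25. TYRO3 read 9.80, 10.01 and 9.74 in ip1 and 8.74, 8.70 and 8.60 in OM3. It was lower on every OM3 array but above background on all of them, and fell by 1.17 ± 0.13 (adjusted p = 9.67e-05). MERTK read 6.42, 6.79 and 6.49 in ip1 and 8.93, 9.06 and 8.96 in OM3, without overlap. It rose by 2.42 ± 0.14 (adjusted p = 1.63e-06), and its other probe by 1.71 ± 0.21.

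The ligands of the TAM receptors also moved apart. GAS6, which binds all 3 receptors, read 11.62, 11.66 and 11.77 in ip1 and 5.72, 5.74 and 5.92 in OM3, where all arrays were below background. By this probe GAS6 was at least 51.5-fold lower in OM3, by a second at least 4.56-fold lower, and its last probe, above background on 1 OM3 array, fell by 5.79 ± 0.20. PROS1, which codes for protein S and binds TYRO3 and MERTK, rose by 0.71 ± 0.18 (adjusted p = 0.01).

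**Figure D2:**
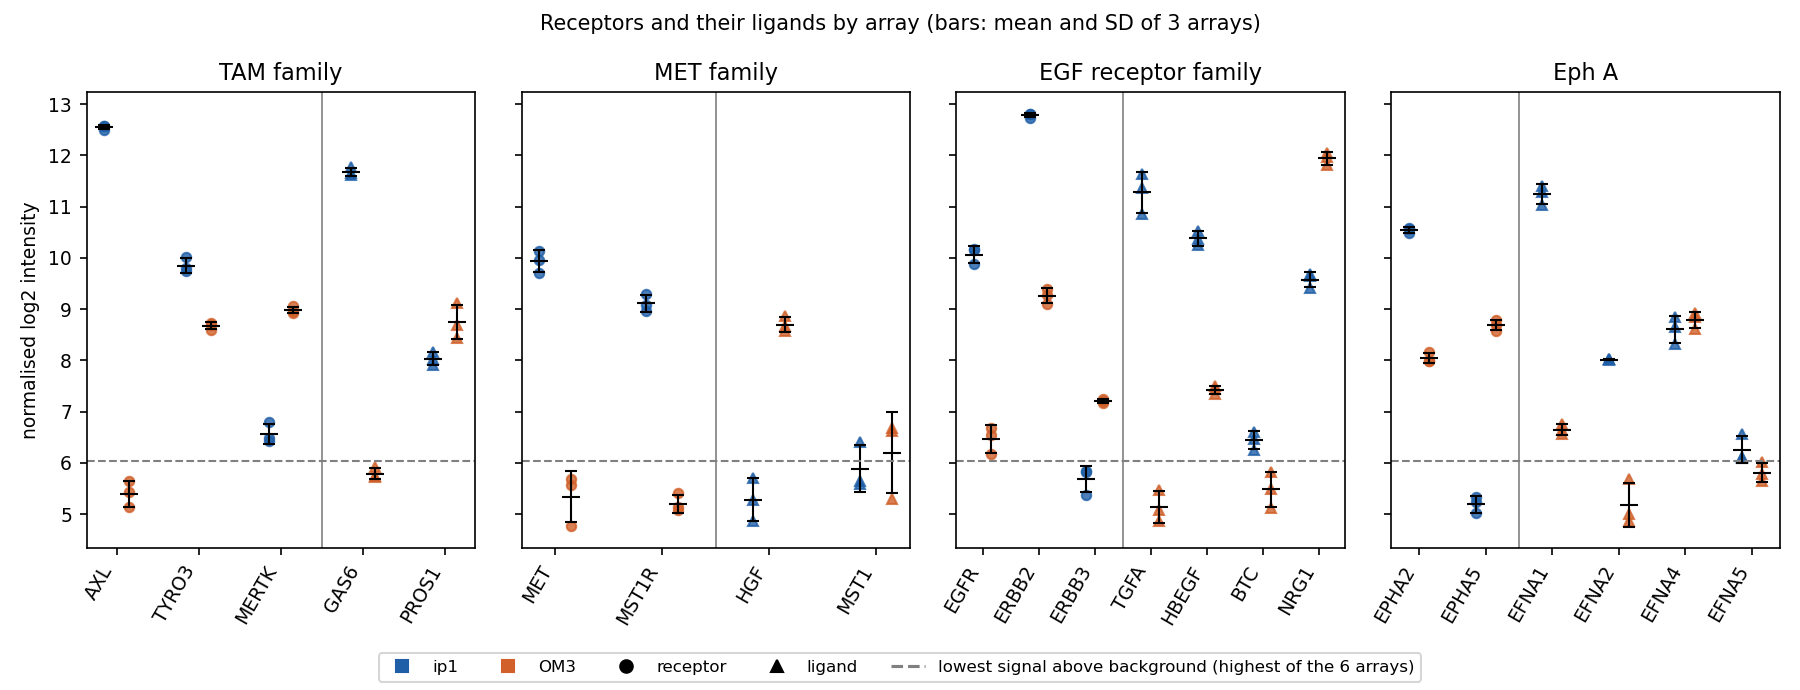
Normalised log2 intensity per array of receptors (circles) and ligands (triangles) in 4 families, with the mean and SD of 3 arrays per group. EGF and NRG2, which were tested and did not pass, are not drawn. AXL and GAS6 both drop to background in OM3, whereas MET drops while HGF rises from background.

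Among the Eph receptors, which bind membrane-bound ephrins on neighbouring cells, EPHA2 was lower and EPHA5 higher in OM3. EPHA2 read 10.48, 10.59 and 10.57 in ip1 and 7.99, 8.16 and 7.99 in OM3, and fell by 2.50 ± 0.12 (adjusted p = 5.95e-07). EPHA5, best known from axon guidance, read 5.23, 5.02 and 5.34 in ip1 and 8.78, 8.58 and 8.69 in OM3. All ip1 arrays were below background, and the OM3 level was higher by at least 6.64-fold (adjusted p = 1.61e-07). This rests on 1 of 3 EPHA5 probes. Another was below background on all 6 arrays, and the last was above it on 1 OM3 array only. EPHB3 rose by 0.60 ± 0.17, from 1 ip1 array above background to all 3 OM3 arrays, and EPHB4, a receptor of ephrin-B2, fell by 0.48 ± 0.14. EPHA1, EPHA4 and EPHA7 were below background on all 6 arrays, and EPHA3, EPHB1 and EPHB6 were above it on 1 or 2 arrays of 1 subline.

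Of 8 listed ephrins, 7 were tested, of which 4 were lower and 0 higher, beside 25.9% lower and 31.2% higher over all genes. EFNA1, a ligand of EPHA2, fell by 4.59 ± 0.14, and EFNA2 was at least 4.06-fold lower in OM3. EFNB1 fell by 1.89 ± 0.25 and EFNB2 by 1.81 ± 0.13. EFNA4, EFNA5 and EFNB3 did not pass the test, at 0.19 ± 0.17, -0.45 ± 0.17 and -0.24 ± 0.17. A second EFNA4 probe was higher in OM3 by 0.68 ± 0.15 (adjusted p over probes = 0.00602).

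The collagen receptors DDR1 and DDR2 moved in opposite directions. DDR1, found mainly in epithelial cells, read 8.70, 9.0 and 8.87 in ip1 and 7.53, 7.62 and 7.67 in OM3, and fell by 1.25 ± 0.13 (adjusted p = 6.67e-05). Its other probe, near background, differed by 0.14 ± 0.38, and with the mean of both probes the change was -0.56 (adjusted p = 0.0663). DDR2, found mainly in mesenchymal cells, read 5.88, 5.61 and 5.50 in ip1 and 9.05, 9.05 and 9.17 in OM3. Every ip1 array was below background, and DDR2 was higher in OM3 by at least 8.79-fold (adjusted p = 2.19e-07). This rests on 1 of 2 DDR2 probes. The other was near background, above it on 2 OM3 arrays only, and did not pass the filter. The collagen gene COL3A1, a fibroblast marker, was likewise below background on all ip1 arrays and rose by at least 45.2-fold, and COL1A2 by at least 2.56-fold. COL1A1, also a collagen among these markers, did not pass the filter, with 1 OM3 array above background. The part of the fibroblast markers in the DDR2 result was not tested.

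The PDGF receptor family was dim and split. PDGFRA, a receptor of platelet-derived growth factors known from mesenchymal cells, rose by 1.01 ± 0.13 (adjusted p = 0.0002). It read 6.84, 6.68 and 6.57 in ip1 and 7.72, 7.66 and 7.74 in OM3. Its other probe was below background on all arrays. The 6 tested fibroblast markers were higher on the same arrays, and their part in the PDGFRA result was not tested. KIT, the receptor of stem cell factor, read 7.02, 7.51 and 7.13 in ip1 and 6.05, 6.12 and 6.51 in OM3, and fell by 0.99 ± 0.18 (adjusted p = 0.00174), with a second probe at -0.97 ± 0.42 (adjusted p over probes = 0.0856). PDGFRB, CSF1R and FLT3 were below background on all arrays. Of the family's 8 ligands, 6 were tested. PDGFB rose by 1.08 ± 0.17, with its other probes at 0.77 ± 0.21 and 0.13 ± 0.19 (adjusted p over probes = 0.0142 and 0.597). PDGFC rose by 0.85 ± 0.17, while KITLG, which codes for stem cell factor and was above background on 2 OM3 arrays, fell by 1.97 ± 0.17. PDGFA, CSF1 and FLT3LG were lower in OM3 by at least 1.55-fold, 1.67-fold and 1.54-fold.

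In the FGF receptor family FGFR3 and FGFR4 fell. FGFR3 read 8.69, 8.75 and 8.89 in ip1 and 6.14, 6.06 and 6.31 in OM3, just above background, and fell by 2.61 ± 0.13 (adjusted p = 6.75e-07). FGFR4 read 7.79, 8.09 and 8.09 in ip1 and 7.28, 6.77 and 6.72 in OM3, without overlap. It fell by 1.07 ± 0.18 (adjusted p = 0.00112). The other probes of FGFR3 and FGFR4 did not pass the filter. FGFR1 was above background on all ip1 and no OM3 arrays, but its difference did not pass the test (adjusted p = 0.0631), and FGFR2 was below background throughout. Of 22 FGF genes, listed by name and not by receptor binding, 7 were tested. Of these, 4 were lower and 1 higher, beside 25.9% and 31.2% of all genes. The higher one was FGF11, at least 3.22-fold, and whether it acts on these receptors was not tested. FGF18 was at least 6.04-fold lower by the probe that represents it and differed by 0.09 ± 0.21 by its other probe, and FGF2 fell by 1.45 ± 0.15 by one probe and differed by 0.26 ± 0.19 by the other.

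PTK7, a receptor with an inactive kinase that acts with Wnt proteins, read 8.72, 8.87 and 8.98 in ip1 and 7.34, 7.78 and 7.00 in OM3. The OM3 arrays were all lower though more spread, and PTK7 fell by 1.48 ± 0.20 (adjusted p = 0.000278), with its second probe down by 1.10 ± 0.13. ROR1, another receptor of Wnt proteins, was at least 1.5-fold lower in OM3 by one probe and at least 2.06-fold lower by the other. RYK, also a Wnt receptor, had 3 probes above background on all arrays, and none of them passed the test (-0.08 ± 0.16 by the brightest, adjusted p = 0.688). MUSK, known from the nerve-muscle synapse, fell by 0.35 ± 0.13 (adjusted p = 0.046), while AGRN, whose product agrin acts on it through LRP4, fell by 3.17 ± 0.15.

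The remaining receptors differed little or were near background. IGF1R, the receptor of insulin-like growth factors, read 5.87, 6.26 and 6.10 in ip1 and 6.89, 7.28 and 6.64 in OM3, and rose by 0.86 ± 0.19 (adjusted p = 0.00447). RET, the receptor of the GDNF family, was at least 1.29-fold lower in OM3, beside its co-receptor GFRA1 (at least 2.58-fold lower) and its ligands NRTN and ARTN (log2 fold changes of -2.48 ± 0.40 and -1.98 ± 0.22, with 1 and 2 OM3 arrays above background, and a second ARTN probe at -0.49 ± 0.26, adjusted p over probes = 0.15). STYK1, a kinase-like membrane protein, was at least 1.67-fold higher in OM3. The vascular receptors FLT1, KDR and TIE1 did not pass the test and lay near background, and FLT4 and TEK were not tested. INSR and INSRR were above background on 1 and 2 ip1 arrays and no OM3 array, and NTRK3 on 1 array of each subline. NTRK2, ROR2, ROS1, LTK and ALK were below background on all 6. BDNF, the ligand of NTRK2, fell by 3.08 ± 0.17 by one probe, above background on 1 OM3 array, and differed by -0.25 ± 0.15 by the other. MDK, reported as a ligand of ALK, rose by 2.81 ± 0.14, whereas PTN, listed with it, was lower at -0.61 ± 0.13 (adjusted p = 0.00407).

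Where a receptor had several probes past the filter, they mostly went the same way but not by the same amount. This could be examined for 10 receptors. AXL, EGFR, ERBB2, ROR1, PTK7 and MERTK had every such probe called in 1 direction. For ERBB2, the dimmer probe was below background on every OM3 array and gave a bound of only 1.16-fold. ERBB3, DDR1 and KIT each had a second probe that did not pass the test. Among all kept probes, 51.3% were called.

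**Figure D3:**
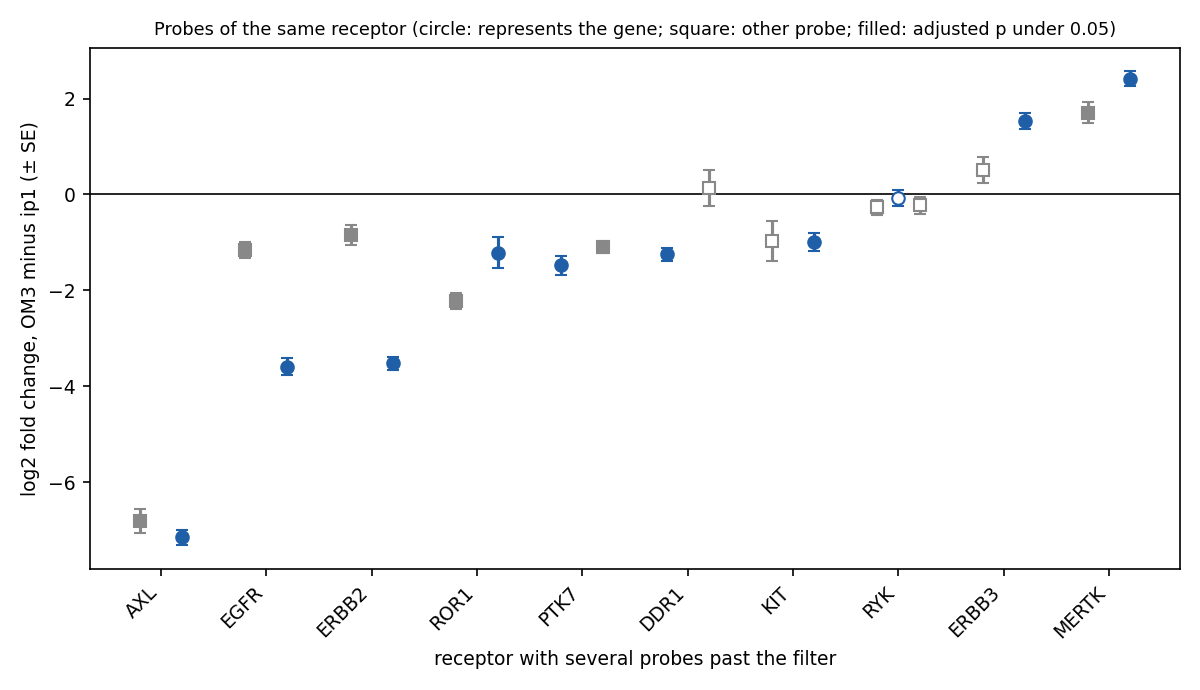
Log2 fold change (OM3 minus ip1, with SE) of every probe past the filter for the 10 receptors with several, the probe that represents the gene as a circle and the others as squares, filled at an adjusted p under 0.05. Fitted values of probes below background in 1 subline rest on background signal. Both AXL probes lie far below 0 and both MERTK probes above it, and the dimmer EGFR and ERBB2 probes show smaller falls than the brighter ones.

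Across all lists, the tested ligands leaned to the lower side as the receptors did, but the filter bears on this. The 84 listed genes were ligands, FGF genes taken by name and not by receptor binding, and ligand-binding co-receptors of RET. Of 43 tested, 7 were higher (FGF11 among them), 24 lower and 12 not called, beside 31.2% of all genes higher and 25.9% lower. Their median log2 fold change was -0.945. The representing probes of 14 were below background on every OM3 array and those of 2 on every ip1 array. A gene that passed the filter only through 1 subline had to be brighter there. With probes required above background on all 6 arrays, 18 were tested, with 5 higher, 7 lower and a median of -0.065. Among the adaptors that dock on active receptors, 3 of 17 tested were higher, 5 lower and 9 not called, so that 47.1% were called, below the 57.1% of all genes. SHC1, which links receptors to RAS, rose by 1.46 ± 0.12. Its other probes differed by 0.73 ± 0.23 and 0.67 ± 0.25 (adjusted p over probes = 0.0269 and 0.05). IRS2, the docking protein of the insulin and IGF1 receptors, fell by 3.71 ± 0.26, with 1 OM3 array above background, and PLCG1 fell by 1.54 ± 0.12. GRB7, an adaptor of ERBB2, fell by 2.58 ± 0.17 by the probe that represents it and was at least 3.42-fold lower by a second. Its last probe, above background on 2 OM3 arrays, differed by -0.80 ± 0.35 (adjusted p over probes = 0.0855).

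Of the genes that restrain receptors, 5 of 15 tested were higher, 4 lower and 6 not called, close to the all-gene shares of 31.2% and 25.9%. CBLB, a ubiquitin ligase for active receptors, rose by 3.19 ± 0.15, and ERRFI1, an inhibitor of the EGFR kinase, by 1.04 ± 0.17. LRIG1, which promotes the breakdown of ERBB receptors, fell by 3.02 ± 0.18, with 1 OM3 array above background, and the phosphatase PTPRF by 3.03 ± 0.16. The co-receptors were lower in 8 of 10 tested and higher in 1 (LRP4), with a median of -2.308, beside 0.086 over all genes. The representing probes of 4 were below background on every OM3 array. A co-receptor that passed the filter only through 1 subline had to be brighter there. CD44, whose variants present growth factors to receptors such as MET, was lower in OM3 by at least 205-fold, and a second probe fell by 5.99 ± 0.26, while its dimmest probe, near background, differed by -0.36 ± 0.19. GPC4 was at least 7.20-fold lower. NRP1 was at least 5.23-fold lower by the probe that represents it, and its other probe, above background on 1 OM3 array, differed by -0.70 ± 0.28 (adjusted p over probes = 0.0708). That other probe stood for NRP1 without ip1 array 1 or 3, at -0.62 (adjusted p = 0.143) and -0.54 (adjusted p = 0.169). SDC4 fell by 2.94 ± 0.15, and SDC1 fell by 2.65 ± 0.16, though a second SDC1 probe differed by -0.20 ± 0.20.

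The genes beside a changed receptor on its chromosome did not move with it in most cases. The 5 nearest protein-coding genes on either side were examined for the 16 receptors changed by at least 2-fold. Of 75 tested neighbours of the 11 lower receptors, 27 (36.0%) were lower, 16 higher and 32 not called. Of 31 tested neighbours of the 5 higher receptors, 13 (41.9%) were higher, 5 lower and 13 not called. Over all genes, 25.9% were lower and 31.2% higher.

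ERBB2, on chromosome 17, was the receptor with the most neighbours moving the same way, 6 of 7 tested. Its neighbours STARD3, PGAP3, MIEN1 and GRB7, commonly amplified together with ERBB2 in tumours, were all lower, with log2 fold changes of -2.33 ± 0.15, -2.91 ± 0.15, -1.23 ± 0.19 and -2.58 ± 0.17. PPP1R1B was at least 131-fold lower, GSDMB fell by 1.05 ± 0.24, and IKZF3 did not pass the test. DNA copy number was not measured on these arrays. Beside MET, on chromosome 7, 4 of 6 were lower, among them CAV1 and CAV2, the caveolins of membrane pits, at least 219-fold lower and down by 5.17 ± 0.25, with 1 OM3 array of CAV2 above background. TES was at least 6.40-fold lower and ST7 fell by 0.46 ± 0.14, whereas CAPZA2, next to MET, differed by 0.56 ± 0.23 (adjusted p = 0.0652).

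Beside AXL, on chromosome 19, 4 of 5 were lower, from HNRNPUL1 (down by 0.44 ± 0.13) to CYP2S1 (at least 3.15-fold). Of 6 tested beside EGFR, 1 was lower (VOPP1, down by 0.70 ± 0.13) and 1 higher (LANCL2, up by 0.50 ± 0.17). Of the 7 tested beside FGFR3, 0 were lower and 4 were higher. PDGFRA and KIT lie next to each other on chromosome 4 and changed in opposite directions.

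**Figure D4:**
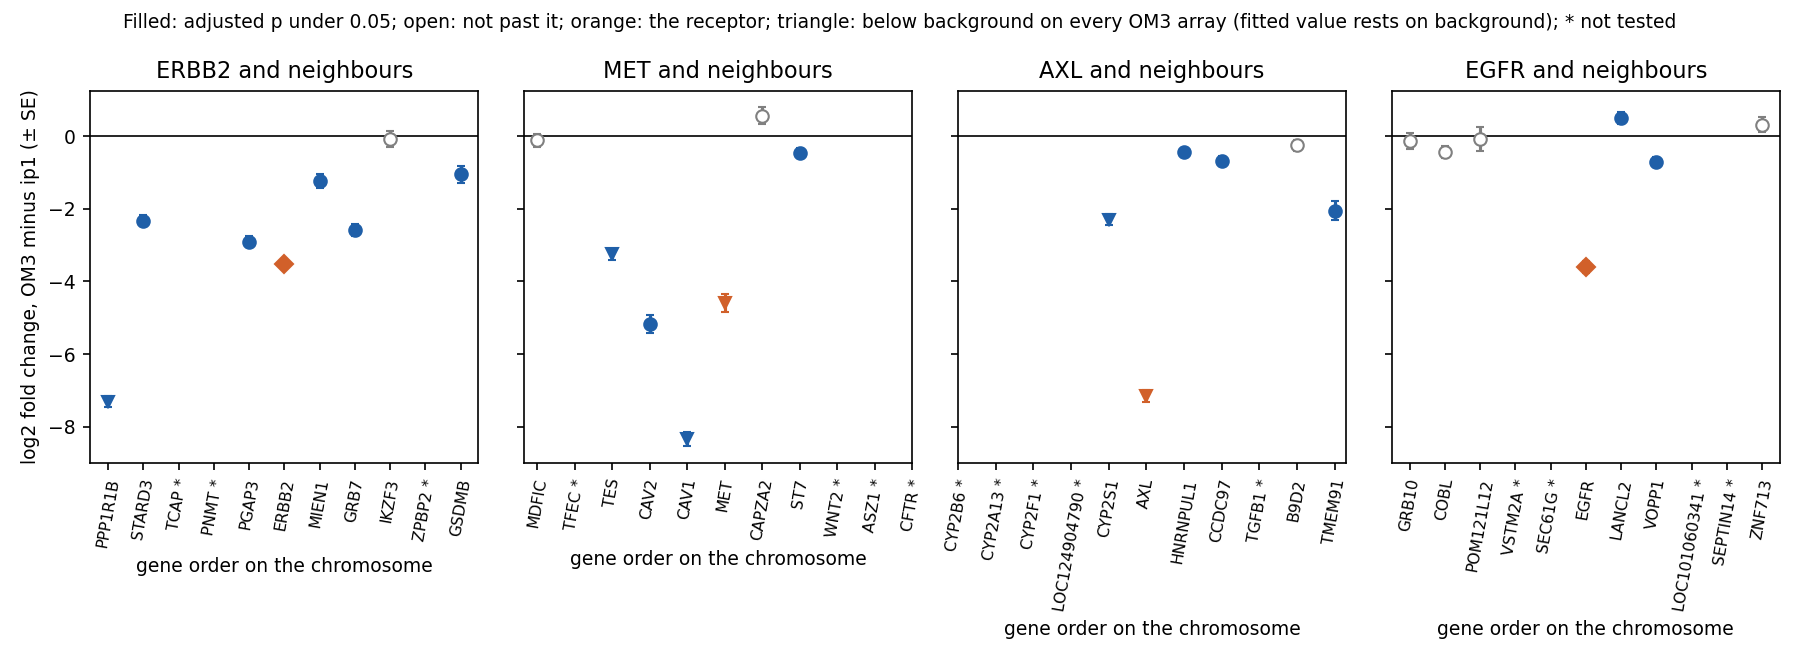
Log2 fold change (OM3 minus ip1, with SE) of ERBB2, MET, AXL and EGFR (orange) and of the 5 protein-coding genes on either side, in gene order, filled at an adjusted p under 0.05. Triangles mark probes below background on every OM3 array, whose fitted values rest on background signal. The genes around ERBB2 lie below 0 on both sides, and those around EGFR lie near 0.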

How the data were processed

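Single-colour Illumina bead arrays of 3 ip1 and 3 OM3 samples were analysed. The authors deposited linear probe intensity values for 48799 probes, exported with BeadStudio per the submitters' processing notes, and a second table of log2 values that the authors had processed, used as an alternative. Columns of the intensity table name the group only, so arrays were numbered in column order, and 3 columns that match no sample were not used. The table has no detection p-values or control probes.

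Normexp background correction (offset 16), quantile normalisation over the 6 arrays and log2 were applied with limma 3.58.1 in R 4.3.3. Background was the mode of each array's log2 signals (density bandwidth 0.02), and its spread the SD of the lower values. A probe was above background at a one-sided probability of 0.05, and 19002 probes above it on at least 3 of 6 arrays were kept. Of several kept probes of a gene, the one with the highest mean stood for it (11729 genes). Groups were compared with lmFit and eBayes, two-sided, with Benjamini-Hochberg adjustment over all genes, or over all kept probes where single probes are given. The threshold was 0.05.

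A probe that stayed below background in all 3 arrays of 1 subline gives only a bound ("at least N-fold"). It sets the bright group's mean against the dim arrays' mean, after raising each dim array to its lowest signal above background if the probe lay lower. Fitted differences are on a scale that shrinks the changes of dim genes. Arrays of 1 subline correlated at 0.9838 to 0.9881 and arrays of different sublines at 0.7966 to 0.8128. Median signals were 130.9 to 142.2 and 38.1% to 42.1% of probes were above background. The number of arrays limits the precision, with a median SE of 0.16.

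Symbols came from the platform annotation, and gene order and promoters from RefSeq (GRCh38.p14), whose gene table served for names and order only. Protein sequences were not used here. Receptors changed by at least 2-fold are given array by array, as are KIT and IGF1R. Further listed genes are given if changed by at least 4-fold or if they are ligands of such receptors. Some smaller changes, such as those of SHC1, PLCG1 and ERRFI1, were named outside this rule. Others of like size, such as those of GAB2, SH3KBP1 and NCK2, all lower in OM3, were not. The members and lists were chosen with earlier results of these data known. The fits were tested on simulated data. Alternatives covered background correction, normalisation, filter, detection threshold, probe choice, the deposited log2 table, an intensity trend and leaving out each array.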

Additional observations from a re-analysis of the deposited data

How the results depend on the processing

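Of 51 named genes, 39 kept their direction and their side of the threshold under each of 18 other settings that gave them a value. With probes required above background on all 6 arrays, 2 receptors were higher and 11 lower, in place of 8 and 16. Of 18 ligands then tested, 5 were higher and 7 lower, in place of 7 and 24. Their median log2 fold change was -0.065 in place of -0.945. Genes measured in 1 subline are not tested in that setting. Without 1 array at a time, 3 to 8 receptors were higher and 11 to 16 lower, and 5 to 7 ligands were higher and 12 to 26 lower. Without OM3 replicate 1, 2 or 3, the receptors called higher numbered 4, 3 and 5, and without ip1 replicate 1, 2 or 3 the ligands called lower numbered 13, 12 and 12. With the probes of the 6 arrays kept, an alternative chosen after seeing the data, leaving out 1 array gave 7 to 9 receptors higher, 15 to 16 lower, 7 to 8 ligands higher and 22 to 25 lower. FGF18 reversed where its other probe stood for it, to 0.092 with probes above background on all 6 arrays, to 0.163 without ip1 replicate 1 and to 0.118 without ip1 replicate 3, none of them past the threshold, and ranged from -3.63 to 0.163 without 1 array at a time. ERBB3 lost its call without OM3 replicate 1 or 2, NRP1 without ip1 replicate 1 (-0.62) or 3 (-0.54), and DDR1 with the mean of its probes. Cyclic loess called 3077 genes higher and 3492 lower over all genes, in place of 3658 and 3042, with a median log2 fold change of -0.0207 in place of 0.0859, and left the receptors at 8 higher and 16 lower. No paired analysis was possible because the groups share no replicate numbers. Receptors near background, such as FLT1, KDR and TIE1, could not be resolved at this signal.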
